A study of Mus musculus with 18 samples.

Results

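The 8 genes described here carry dietary cholesterol into the enterocyte and move it onwards inside the cell. They are *Npc1l1*, *Scarb1*, *Soat2*, *Soat1*, *Lipa*, *Npc1*, *Npc2* and *Stard3*, and they were picked by gene name for these roles, by a rule that uses no measured value, at a time when earlier results of these data were known. They are 8 of the 21542 genes whose probes passed the filter on dim signal, and of 37074 gene names on the array. Each gene was read at its brightest probe, and all 8 had at least 1 probe that passed.

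Expression was measured on Agilent one-colour microarrays, on which labelled copies of the RNA bind to short DNA probes, so that a brighter spot means more of the matching transcript. Every array held the RNA of cells isolated from the ileum of 1 mouse by chelation, so the values are bulk values of a cell suspension. There were 6 arrays in each of 3 groups: chow-fed mice with a floxed, intact Pgc1α gene (Pgc1α fl/fl, here the chow group), Pgc1α fl/fl mice fed a Western diet (here the floxed WD group), and iPgc1α-/- mice fed the same Western diet, or WD (here the iPgc1α-/- group). The sample labels write these groups as iPGC1afl/fl and iPGC1a-/- and name the WD a high-fat diet. The WD gave 42% of its kcal as fat and contained 0.2% cholesterol. It was fed for 8 weeks from the age of 8 weeks, and the mice were killed at Zeitgeber time 3, which the study's methods place after an overnight fast. Mice of both genotypes carry the floxed Pgc1α allele on a C57BL6/J background, and in iPgc1α-/- mice a Cre driven by the Villin promoter removes exons 3 to 5 in the intestinal epithelium. A chow-fed iPgc1α-/- group was not analysed here, so that diet within that genotype, and genotype on chow, have no comparison.

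Cholesterol in the gut lumen reaches the enterocyte mainly through NPC1L1, the brush-border transporter that ezetimibe blocks. SR-BI, the product of *Scarb1*, also binds lipoproteins and sterols at the cell surface. Inside the cell ACAT2 (*Soat2*) and ACAT1 (*Soat1*) esterify the sterol for chylomicrons and lipid droplets, lysosomal acid lipase (*Lipa*) cleaves the esters again, and NPC1 and NPC2 hand the free cholesterol out of the lysosome, while STARD3 transfers sterol between endoplasmic reticulum and endosomes. Cells read their sterol content through SREBP2, which switches on cholesterol synthesis and the LDL receptor when sterol is low, and through the liver X receptors (LXR), which switch on efflux when oxysterols are high.

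RefSeq promoter sequence on GRCm38.p6 was at hand for 5 of the 8 genes. The 250 bases before the start are shown for the absorption gene *Npc1l1* and for *Lipa* and *Soat1*, which ended on opposite sides of chow in the iPgc1α-/- group below. All 3 lie on the minus strand and are written 5′ to 3′, at chr11:6230246-6230495, chr19:34527475-34527724 and chr1:156474329-156474578. Capitals mark every match to one of the motifs searched on both strands.
Npc1l1: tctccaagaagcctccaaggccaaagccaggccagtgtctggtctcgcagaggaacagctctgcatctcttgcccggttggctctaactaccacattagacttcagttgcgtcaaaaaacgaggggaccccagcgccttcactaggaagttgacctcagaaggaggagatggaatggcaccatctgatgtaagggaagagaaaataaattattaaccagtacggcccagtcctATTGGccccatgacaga
Lipa: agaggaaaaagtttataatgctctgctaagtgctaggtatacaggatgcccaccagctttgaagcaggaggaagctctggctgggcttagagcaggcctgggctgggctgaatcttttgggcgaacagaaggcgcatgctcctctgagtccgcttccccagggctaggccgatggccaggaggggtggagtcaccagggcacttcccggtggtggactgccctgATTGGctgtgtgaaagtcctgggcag
Soat1: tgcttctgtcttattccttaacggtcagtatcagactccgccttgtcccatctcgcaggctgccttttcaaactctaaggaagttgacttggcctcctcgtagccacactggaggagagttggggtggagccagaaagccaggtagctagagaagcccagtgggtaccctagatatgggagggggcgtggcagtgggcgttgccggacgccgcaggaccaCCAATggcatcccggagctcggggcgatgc

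Each of the 3 windows held a CCAAT box (CCAAT), as did those of *Npc2* and *Stard3*. That box stood in 33.8% of the 32851 promoter windows of the same length, and it starts at position -17 in *Npc1l1*, -26 in *Lipa* and -30 in *Soat1*, counted back from the start. A sterol regulatory element written as TCACNCCAC (1.05% of windows) was matched once, in *Stard3* at position -211. The other motifs searched were an LXR direct repeat (AGGTCA repeated after 4 bases, 0.0152%), a PPAR direct repeat (AGGTCA repeated after 1 base, 0.0335%), an HNF4 site (CAAAGTCCA, 0.384%) and the E-box of lysosomal genes (CACGTG, 6.02%), and none of them matched in these 5 windows. Such a match is a string of letters and no measured binding site.

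On the arrays, 18 probes carry the names of the 8 genes and 15 of them passed the filter. The arrays lay on 3 slides with 2 of each group on every slide. The share of spots well above background was 56.3% to 62.3% per array, with 0 saturated. All levels below are log2 normalized signals, which compare arrays at 1 probe and not one gene with another. The signal of *Ppargc1a*, the targeted gene, was not lower in the iPgc1α-/- group, at 11.67 ± 0.26, than the 11.38 ± 0.07 of the floxed WD group (SD, n = 6; log2 fold change 0.30, limma adjusted p = 0.572). The place of its probe relative to the deleted exons was not determined, so iPgc1α-/- below means the arrays labelled so.

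The floxed WD and chow groups, both Pgc1α fl/fl, were compared to ask how these 8 genes stood when the diet supplied more fat and cholesterol. *Soat2* rose and was the 1 member of 8 called (adjusted p of 0.05 or lower). None of the 8 was called lower. In the same comparison 10.4% of all genes tested were called higher and 14.2% lower, so that 42.2% of the calls were higher. That share was 58.6% with the median signal and 55.5% with the scanner's processed signal, each scaled to the 75th percentile per array. The median log2 fold change of the 8 was 0.06, against 0.00 over all genes tested. *Npc1l1* did not pass the test. In the same arrays 11 of 14 genes of the SREBP2 pathway fell and 6 of 8 genes of sterol efflux and LXR targets rose. In bulk samples fewer cells of a type and less RNA per cell cannot be told apart, and this holds for every difference below.

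**Figure D1:**
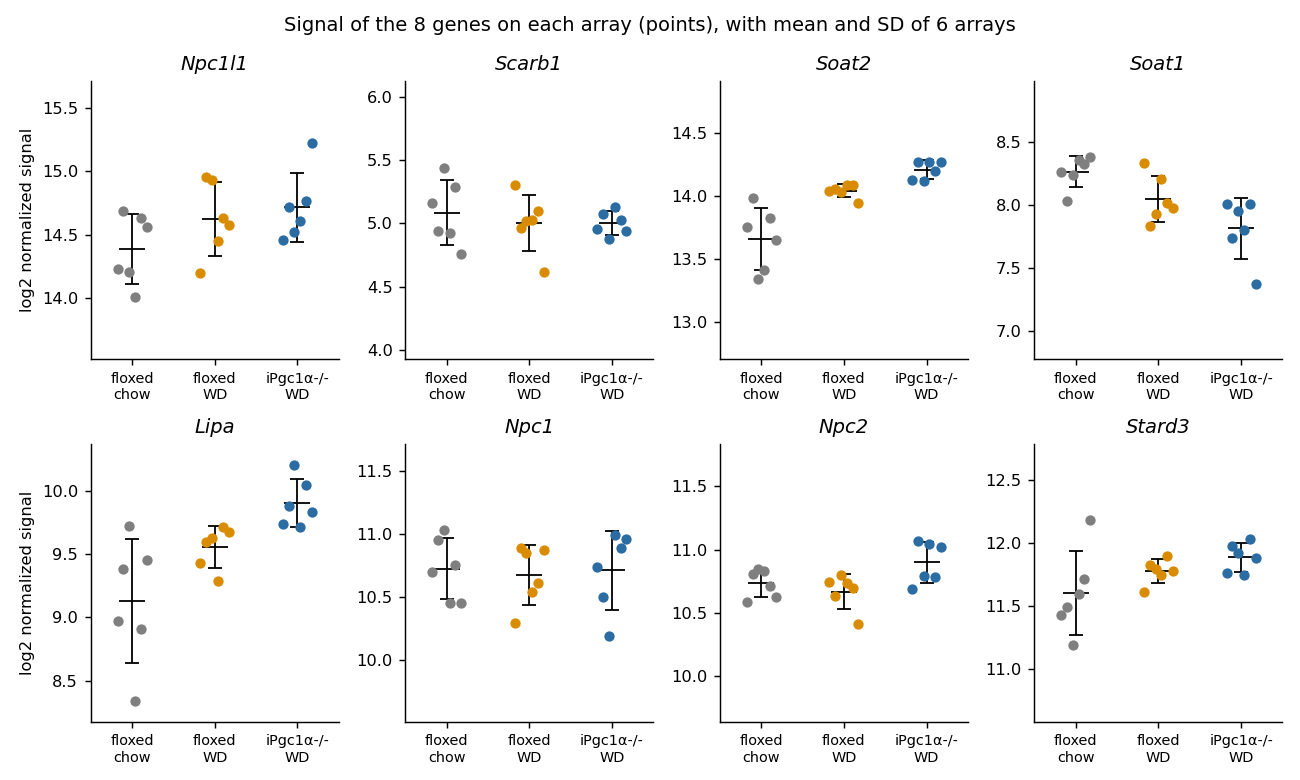
Log2 normalized signal (vertical axis) of each gene at its brightest probe, 1 point per array, in the 3 groups of 6 arrays, with the mean and SD in black. Every panel spans the same height on the log2 scale. *Soat2* of the iPgc1α-/- group sits above all other arrays and *Soat1* of that group below all chow arrays.

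*Npc1l1*, the transporter for uptake at the brush border, was bright on every array. On chow its lowest, median and highest level were 14.01, 14.39 and 14.69 (mean 14.39 ± 0.28). In the floxed WD group they were 14.20, 14.61 and 14.96 (mean 14.62 ± 0.29), and in the iPgc1α-/- group 14.46, 14.66 and 15.22 (mean 14.72 ± 0.27; SD, n = 6 in each group). The groups overlapped, with 2 of the 6 floxed WD arrays above all chow arrays. The diet difference was 0.24 on the log2 scale (SE 0.15, 95% confidence interval -0.07 to 0.55, limma adjusted p = 0.265; two-sided exact permutation p = 0.184). It was positive on 2 of 3 slides and ranged from -0.03 to 0.58 between them. The *Npc1l1* probe lies at 11:6111238-6111297 on mm9, the build of the array files, and no other probe carries the name.

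*Scarb1*, the gene of SR-BI, was close to background. The brighter of its 2 probes was well above background on 5 of 6 chow arrays, 3 of 6 floxed WD arrays and 2 of 6 iPgc1α-/- arrays, and the other probe on none. Its level ran from 4.76 to 5.44 on chow (median 5.05), from 4.61 to 5.30 in the floxed WD group (median 5.02) and from 4.87 to 5.13 in the iPgc1α-/- group (median 4.99). *Scarb1* thus met the filter through the chow group alone. These ranges overlapped, and the differences were -0.08 for diet and 0.00 for genotype. Nothing is read from their test, since the filter favours the group where the signal was higher, and *Scarb1* enters the counts below and above as 1 of the 8 without a call. At such a signal a change of transcript would be understated.

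*Soat2* encodes ACAT2, the esterifying enzyme of enterocytes. Its level on chow was 13.35 at the lowest, 13.70 at the median and 13.98 at the highest (mean 13.66 ± 0.25). In the floxed WD group the 6 arrays were packed between 13.95 and 14.09 with a median of 14.05 (mean 14.04 ± 0.05). In the iPgc1α-/- group they lay between 14.12 and 14.27 with a median of 14.23 (mean 14.21 ± 0.07). All but 1 of the floxed WD arrays exceeded every chow array, and the exception, replicate 6, stood at 13.95. The diet difference was 0.38 (SE 0.09, 1.30-fold with a 95% confidence interval of 1.14 to 1.48, limma adjusted p = 0.0049; two-sided exact permutation p = 0.0043). It was positive on 3 of 3 slides, from 0.29 to 0.52. A second *Soat2* probe gave 0.45 for diet (SE 0.16, adjusted p = 0.0555), in the same direction and not called.

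*Soat1* encodes ACAT1, the isoenzyme of most other cell types and of macrophages. Its level was 8.04 at the lowest, 8.29 at the median and 8.38 at the highest on chow. It was 7.84, 7.99 and 8.33 in the floxed WD group and 7.38, 7.88 and 8.01 in the iPgc1α-/- group. Means were 8.27 ± 0.13, 8.05 ± 0.18 and 7.81 ± 0.24. In the floxed WD group, 4 of 6 arrays lay below all chow arrays, with a diet difference of -0.22 (SE 0.11, adjusted p = 0.153; two-sided exact permutation p = 0.0368), negative on 3 of 3 slides. The sign of *Soat1* was thus opposite to that of *Soat2* in the same mice.

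*Lipa*, the lysosomal acid lipase, varied most on chow, where the 6 arrays ran from 8.34 over a median of 9.18 to 9.72 (mean 9.13 ± 0.49). Its level was 9.29 at the lowest, 9.61 at the median and 9.71 at the highest in the floxed WD group (mean 9.56 ± 0.16). It was 9.71, 9.86 and 10.21 in the iPgc1α-/- group (mean 9.90 ± 0.19). The chow range enclosed all 6 floxed WD arrays, and 3 chow arrays fell below every one of them. The diet difference was 0.43 (SE 0.17, 95% confidence interval 0.08 to 0.78, adjusted p = 0.0722; two-sided exact permutation p = 0.0693), positive on 3 of 3 slides from 0.31 to 0.62. Leaving out chow replicate 3 or 6, the brightest *Lipa* arrays of that group, gave 0.52 (adjusted p = 0.0201) or 0.50 (adjusted p = 0.0465). Leaving out chow replicate 4, the dimmest, gave 0.27 (adjusted p = 0.180).

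*Npc1* and *Npc2*, the membrane protein and the soluble carrier of the lysosomal exit for cholesterol, hardly differed with diet. *Npc1* had medians of 10.73 on chow, 10.73 in the floxed WD group and 10.81 in the iPgc1α-/- group, with a range over all arrays from 10.19 to 11.03. Its diet difference was -0.05 (95% confidence interval -0.34 to 0.25, adjusted p = 0.842), and 2 dimmer probes gave 0.08 and 0.10, with adjusted p-values of 0.791 and 0.724. *Npc2* lay between 10.59 and 10.84 on chow (median 10.76) and between 10.41 and 10.80 in the floxed WD group (median 10.71), with a difference of -0.07 (95% confidence interval -0.25 to 0.11, adjusted p = 0.622). The sign of both depends on the scaling: with the scanner's processed signal scaled per array they were 0.04 and 0.01.

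*Stard3*, the sterol transfer protein of late endosomes, ran from 11.19 to 12.18 on chow (median 11.54), from 11.61 to 11.90 in the floxed WD group (median 11.78) and from 11.75 to 12.03 in the iPgc1α-/- group (median 11.90). The chow arrays enclosed those of both WD groups because of 1 array, replicate 6, at 12.18. The diet difference was 0.17 (SE 0.12, adjusted p = 0.303), and 0.29 without that array (adjusted p = 0.0253), while without chow replicate 3, the lowest at 11.19, it was 0.08 (adjusted p = 0.637), so size and call depend on single chow arrays. A dimmer *Stard3* probe gave -0.03 (adjusted p = 0.870).

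**Figure D2:**
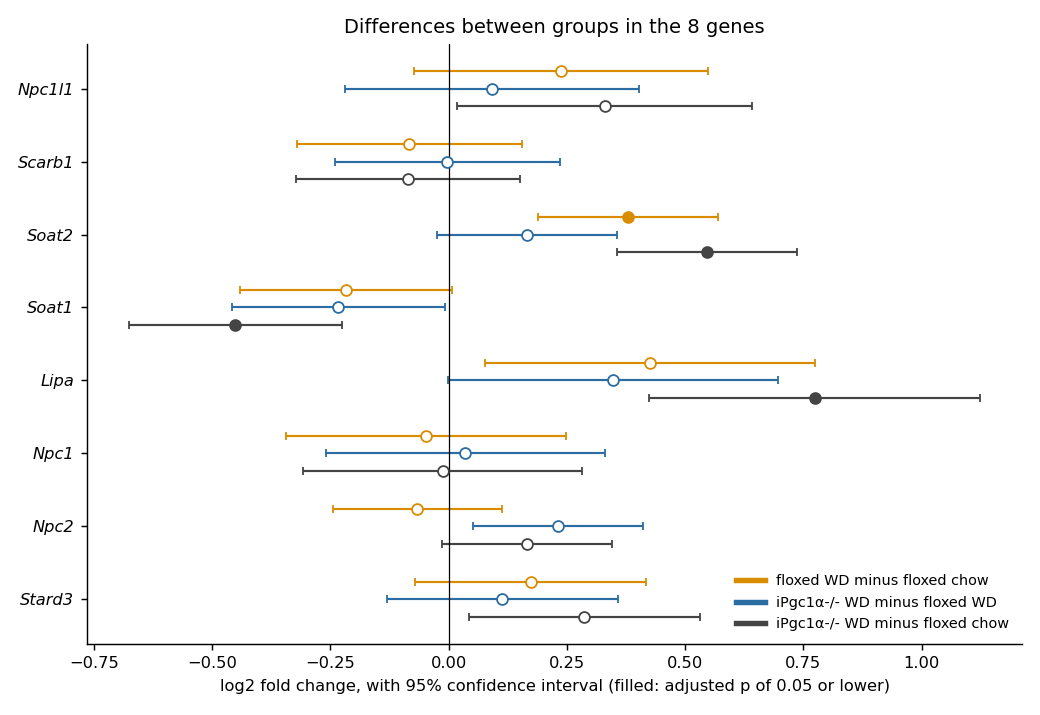
Log2 fold change (horizontal axis) of each gene in the 3 comparisons with its 95% confidence interval. Filled points passed an adjusted p of 0.05, which was 1 of 8 for diet (*Soat2*), 0 of 8 for genotype and 3 of 8 for both together (*Soat2*, *Soat1* and *Lipa*). Of all genes tested, 10.4% were called higher and 14.2% lower for diet. For genotype these shares were 0.0650% and 0.162%, and for both together 16.8% and 20.0%.

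The iPgc1α-/- group was compared with the floxed WD group to ask how the 8 genes differed by labelled genotype. With limma, 0 of the 8 genes were called in either direction, against 0.0650% of all genes called higher and 0.162% lower. At an unadjusted p under 0.05 there were 2, *Npc2* higher and *Soat1* lower, against 9.30% of all genes. The median log2 fold change of the 8 was 0.10, against 0.01 over all genes tested. *Npc1l1* differed by 0.09 (95% confidence interval -0.22 to 0.40, adjusted p = 0.869; two-sided exact permutation p = 0.593), and within slides from -0.06 to 0.35. That interval runs from 0.86-fold to 1.32-fold. The brightest *Npc1l1* array was iPgc1α-/- replicate 6 at 15.22, and without it the difference was -0.01.

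Several other members lay higher in the iPgc1α-/- group without passing the adjustment. All 6 *Soat2* values there were above all 6 of the floxed WD group, by 0.17 on average (95% confidence interval -0.02 to 0.36, limma adjusted p = 0.573; two-sided exact permutation p = 0.00216, the smallest that 6 against 6 allows). It was the 1 member of 8 separated in this way, as were 0.966% of all genes. At the second *Soat2* probe the difference was 0.36 (adjusted p = 0.504; two-sided exact permutation p = 0.119). *Lipa* was higher by 0.35 (adjusted p = 0.522; two-sided exact permutation p = 0.0043), with 5 of 6 arrays above all of the other group. *Npc2* was higher by 0.23 (95% confidence interval 0.05 to 0.41, adjusted p = 0.421; two-sided exact permutation p = 0.0303), with arrays from 10.69 over a median of 10.91 to 11.07. *Stard3* differed by 0.11 (adjusted p = 0.781) and *Npc1* by 0.04 (adjusted p = 0.954). *Soat1* was lower by 0.23 (log2 fold change -0.23, adjusted p = 0.508; two-sided exact permutation p = 0.0866), and without iPgc1α-/- replicate 6, its lowest array at 7.38, by less (log2 fold change -0.14, adjusted p = 0.867). The differences of *Soat2*, *Lipa* and *Npc2* were positive and that of *Soat1* negative on 3 of 3 slides.

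**Figure D3:**
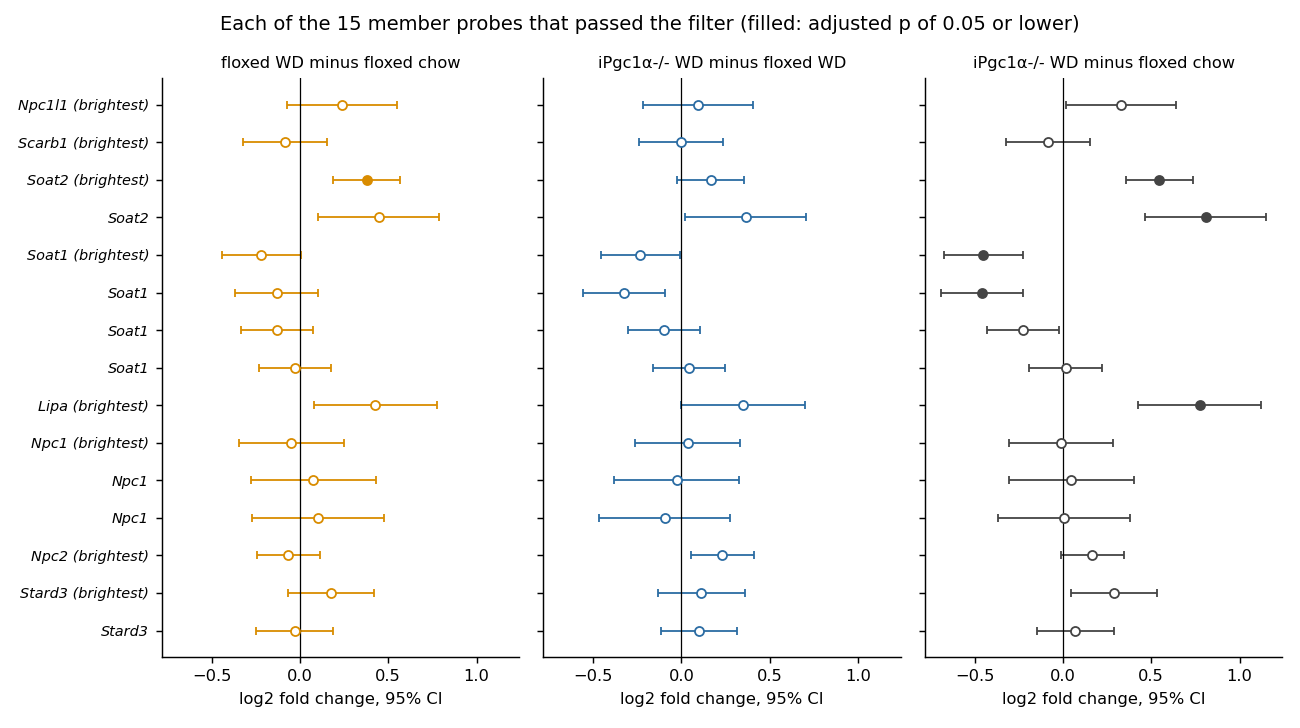
Log2 fold change with 95% confidence interval (horizontal axes) at each of the 15 member probes that passed the filter, 1 row per probe and 1 panel per comparison. Filled points passed an adjusted p of 0.05. Both *Soat2* probes lie right of 0 and the 2 brighter *Soat1* probes left of it in all panels, while the dimmest *Soat1* probe stays near 0.

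The iPgc1α-/- group was also set against the chow group, a comparison in which diet and genotype change together and whose arrays also serve in the other comparisons. Here 3 of 8 genes were called, *Soat2* and *Lipa* higher and *Soat1* lower. Of all genes tested, 16.8% were called higher and 20.0% lower. *Soat2* was higher by 0.55 (SE 0.09, 1.46-fold, limma adjusted p = 0.00014; two-sided exact permutation p = 0.00216), with no overlap between the groups. *Lipa* was higher by 0.77 (SE 0.17, 1.71-fold with a 95% confidence interval of 1.34 to 2.18, adjusted p = 0.0014), with 5 of 6 arrays above all chow arrays, and was the 1 member also past a fold of 1.5, as were 11.8% of all genes. *Soat1* was lower (log2 fold change -0.45, SE 0.11, 0.73-fold, adjusted p = 0.0030; two-sided exact permutation p = 0.00216), and all 6 arrays lay below all 6 chow arrays. Groups without overlap were seen for 2 of the 8, *Soat2* and *Soat1*, and for 16.2% of all genes. *Npc1l1* differed by 0.33 (SE 0.15, 95% confidence interval 0.02 to 0.64, adjusted p = 0.0911) and *Stard3* by 0.29 (adjusted p = 0.0616), *Npc2* by 0.17 (adjusted p = 0.139), *Scarb1* by -0.09 and *Npc1* by -0.01 (adjusted p = 0.955).

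Other probes of the same genes give a check on these calls. The second *Soat2* probe was higher by 0.81 (SE 0.16, adjusted p = 0.00083) and a second *Soat1* probe lower (log2 fold change -0.46, SE 0.11, adjusted p = 0.0036). Of 5 *Soat1* probes 4 passed the filter. The 2 dimmest of these gave -0.23 (adjusted p = 0.0774) and 0.02 (adjusted p = 0.922), both near 5 on the log2 scale, and with the 4 averaged the difference was -0.28 (adjusted p = 0.0082). *Lipa* has a single probe, at 19:34567717-34567776.

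Genes around the 8 were read from 8 lists of 73 genes, of which 72 passed the filter. With genotype none of the 72 passed, where 0.0650% of all genes tested were called higher and 0.162% lower. With diet 20 of the 72 were called higher and 15 lower, against 10.4% and 14.2% of all genes tested. In the SREBP2 pathway 11 of 14 genes fell and 0 rose, under each of the 5 scalings tried, with a median log2 fold change of -1.14. The falls were -2.55 for *Sqle*, the squalene epoxidase (adjusted p = 8.8e-08), -2.07 for *Fdft1*, the squalene synthase (adjusted p = 1.5e-07), and -1.69 for *Fdps*, the farnesyl diphosphate synthase (adjusted p = 5.7e-08). *Npc1l1*, a gene that SREBP2 is known to activate, had its difference of 0.24 in the same arrays and was not called (limma adjusted p = 0.265). The confidence interval of that difference, -0.07 to 0.55, lay on both sides of 0, so its sign is not settled. A link between *Npc1l1* and the fall of the SREBP2 pathway was not tested.

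Of the sterol efflux and LXR targets 6 of 8 rose and 0 fell under the same 5 scalings, with a median of 0.80. *Abca1*, the basolateral efflux pump, rose by 1.84 (adjusted p = 1.8e-05), *Srebf1* by 1.54 (adjusted p = 6.8e-08) and *Mylip*, the ligase that degrades the LDL receptor, by 1.13 (adjusted p = 6.6e-06). Among 11 genes of brush-border uptake and NPC1L1 trafficking, 3 rose and 1 fell (median 0.15). *Cd36*, a fatty acid translocase, rose by 1.94 (adjusted p = 1.1e-05) and *Pdzk1*, a scaffold of SR-BI, by 0.53 (adjusted p = 0.0016), while *Myo5b*, a motor of apical recycling, fell (log2 fold change -0.43, adjusted p = 0.0098), a call not made with either scaling to the 75th percentile.

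The next lists hold the steps at which *Soat1*, *Soat2*, *Lipa*, *Npc1* and *Npc2* act. Of 3 tested genes of ester hydrolysis and esterification, *Nceh1*, a cholesterol ester hydrolase, rose by 0.74 (adjusted p = 0.0010). Of 9 genes of lysosomal lipid handling 3 rose and 1 fell (median -0.05). The largest changes called were -0.55 for *Tmem97*, a binding partner of NPC1 (adjusted p = 0.00083), 0.40 for *Gpr155*, a lysosomal cholesterol sensor (adjusted p = 0.0059), and 0.39 for *Lamp1*, a lysosomal membrane protein (adjusted p = 0.0018). Of 18 genes of non-vesicular sterol transfer, to which the family of *Stard3* belongs, 4 rose and 1 fell (median 0.08). *Gramd1a*, which carries plasma membrane cholesterol to the endoplasmic reticulum, fell (log2 fold change -1.13, adjusted p = 2.8e-05), *Osbpl6* rose by 0.72 (adjusted p = 0.00017) and *Scp2* by 0.64 (adjusted p = 2.1e-05).

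Chylomicron packaging, the step that follows esterification, had 2 of 5 genes higher and 0 lower (median 0.36), *Apoa4* by 0.98 (adjusted p = 0.00059) and *Apob* by 0.39 (adjusted p = 0.0112). Of 4 transcription factors and coactivators linked to *Npc1l1*, *Ppara* rose by 1.63 (adjusted p = 7.8e-09) and *Ppargc1b* fell (log2 fold change -0.54, adjusted p = 0.0079). *Hnf4a*, which drives intestinal genes, differed by -0.13 (adjusted p = 0.410).

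**Figure D4:**
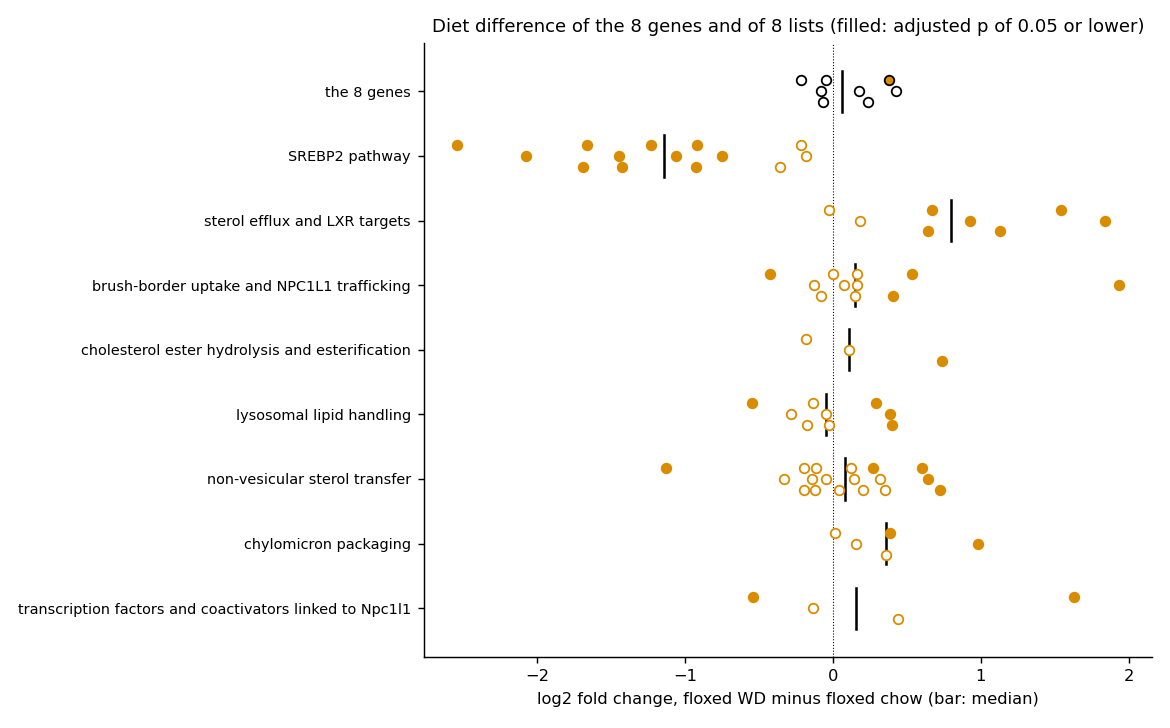
Log2 fold change of the floxed WD over the chow group (horizontal axis) for the 8 genes and for 8 lists of related genes, 1 point per gene, filled where the adjusted p was 0.05 or lower, with the median as a bar. The SREBP2 pathway has a median of -1.14 and the LXR targets one of 0.80, while the 8 genes lie around 0.06.

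Markers of other cell types were read in the same arrays. With diet, all 6 T cell markers and all 6 B and plasma cell markers fell (median log2 fold changes -1.68 and -1.97), as did 6 of 6 goblet cell markers (median -0.73). The B and plasma cell list mean ran from 7.21 to 8.95 on chow. In the floxed WD group it ran from 5.18 to 7.36, the lower end near the dim level of *Scarb1*. Its median fall was -1.50 with a background correction (normexp) and -3.20 with the processed signal scaled to the 75th percentile. The size of that fall is thus not settled, and the group through which dim markers passed the filter was not read. The mean level of the T cell list ran from 9.23 to 10.68 on chow, from 8.09 to 9.03 in the floxed WD group and from 8.44 to 9.16 in the iPgc1α-/- group. Of macrophage and dendritic cell markers, the cell class in which ACAT1 is best known, 3 of 6 tested fell, and *Adgre1* and *C1qa* did not pass the filter. Their list mean ran from 8.79 to 9.08 on chow, from 8.25 to 8.74 in the floxed WD group and from 8.38 to 8.70 in the iPgc1α-/- group. Their part in the lower *Soat1* signal was not tested. Of the other lists, 2 of 6 stem and cycling, 1 of 5 Paneth, 1 of 6 enteroendocrine and 1 of 4 tested tuft cell markers fell. Of fibroblast and smooth muscle markers 0 of 5 tested were called, and of endothelial markers 0 of 2 tested. Floxed WD replicate 1 stood at 8.15 on the fibroblast and smooth muscle list mean, where its group had a median of 6.89. In that group the same array held the lowest *Npc1l1*, *Npc1* and *Stard3* signals and the highest *Soat1* signal. The part of its cell mix in those values was not tested. Some of the marker counts given here depend on the scaling. With either scaling to the 75th percentile, 1 stem and cycling, 2 macrophage and dendritic and 0 tuft cell markers fell. In both of these scalings 1 Paneth marker rose and 0 fell. The T cell count stayed at 6 under each of the 5 scalings, and those of B and plasma cells and of goblet cells were 5 or 6.

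Of 10 general enterocyte markers 2 rose with diet, *Alpi* and *Apoa4*, and 0 fell (median 0.17). Some of these markers also stand in the lists above, among them *Apoa4* in chylomicron packaging, so the lists are not independent. Of 4 markers of proximal small intestine 3 rose (median 0.96), while 2 of 4 markers of distal ileum enterocytes fell (median -0.52). With either scaling to the 75th percentile, 1 of the 4 distal ileum markers fell. The mean of the proximal list ran from 11.98 to 13.68 on chow, from 13.78 to 14.33 in the floxed WD group and from 13.94 to 14.76 in the iPgc1α-/- group. Chow replicate 4, the array at 11.98, also held the lowest *Lipa* and *Npc1l1* signals. Without it the diet difference of *Soat2* was 0.33 (adjusted p = 0.0154), and in the comparison of both factors *Lipa* differed by 0.62 (adjusted p = 0.0020). The part of these markers in the *Soat2* and *Lipa* values was not tested. No marker list had a gene called by genotype, where 0.0650% of all genes tested were called higher and 0.162% lower.

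After group means were removed, the genes that varied most like *Npc1l1* over the 18 arrays were *Mpp1* (Pearson's r 0.94), *Slc7a9* (0.93), *Tspan5* (0.92), *Ksr1* (0.91) and *Mep1b* (0.91). *Slc7a9* is an apical amino acid transporter subunit and *Mep1b* a brush-border protease. Among the 8 genes themselves *Npc1l1* was most like *Soat2* (0.54) and *Npc1* (0.52) and ran against *Soat1* (-0.76). These are descriptions over arrays that share their normalization, and the -0.76 for *Soat1* pools the 3 groups. In the iPgc1α-/- group, replicate 6 held both the highest *Npc1l1* signal (15.22) and the lowest *Soat1* signal (7.38). On chow, replicates 5 and 6 lay above the group mean for both genes.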

How the data were processed

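RNA of ileum cells from 18 mice was hybridised to Agilent one-colour arrays, 1 array per mouse and 6 per group. The authors deposited scanner files with the spot intensity values of Feature Extraction 10.10.1.1, not normalized between arrays, and a table of log2 values for 33095 probes, which their methods describe as filtered, corrected for washing bath and labelling serial and normalized with qsmooth. Those batches are not named in the labels, so that correction was not repeated. The deposited log2 values correlated at 0.99999 or more with the values used here on every array. As the values used here carry no such correction, both sets hardly differ apart from any shift or scale of a whole array. No deposited column was left without a sample.

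The median signal was log2 transformed in R 4.3.3 without control spots and the 46 to 153 spots flagged as outliers on each array, and spots of a probe were averaged (56605 probes). The 32726 probes that were well above background on 5 or 6 arrays of any group were normalized with an own qsmooth (window 0.05) and tested with limma 3.58.1 (1 model for the 3 groups, Benjamini-Hochberg adjustment across every probe tested). A gene was called at an adjusted p of 0.05 or lower at its brightest probe. For single genes a two-sided exact permutation test over the 924 divisions of 12 arrays was added. The fit was tested on simulated arrays. The labels give replicate numbers 1 to 6 but no animal that groups share, so numbers were not used to pair arrays. Of 18 pairs with the same number, 9 had correlated deviations above 0.1 (range -0.22 to 0.35, median 0.10). Pairs with different numbers were not read beside them, so these values cannot decide whether same-numbered arrays share variation.

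The members, the 8 lists and the marker lists were chosen with earlier results of these data known. Named genes are the 8 members with all their probes, up to 3 called genes per list with the largest diet change, *Ppargc1a* and the 5 genes most like *Npc1l1*. *Hnf4a*, *Adgre1* and *C1qa* were named after their values were seen. A single result is not reported here. Promoters and symbols (8 of 8 matched) came from RefSeq on GRCm38.p6, used for no array coordinate. Standard errors of log2 fold changes had a median of 0.11, and precision is limited by 6 arrays per group and, for *Scarb1* and dim probes, by background. Alternatives were other signals, scalings, filters, blocks (slide, replicate number), variance models, thresholds, averaged probes and each array left out. Plots were made with matplotlib 3.10.9.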

Additional observations from a re-analysis of the deposited data

Results flagged for a closer look

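In 1 of the 24 sets of 6 arrays (8 genes in 3 groups), 1 array stood apart from the other 5 by more than Dixon's 95% critical value for sets of 6. It was *Soat2* in the floxed WD group, where replicate 6 was at 13.95 and the next array at 14.04, a gap of 0.628 of the group's range. That group's *Soat2* range was narrow (SD 0.05), and chance flags about 1 in 20 such sets.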

How the results depend on the processing

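The call of *Soat2* with diet held under each alternative in which its fold change was refitted (0.33 to 0.52, adjusted p 0.00063 to 0.0171) and without any 1 array (0.31 to 0.45), and 0 of 8 genes were called by genotype under every alternative. Genes called with diet numbered 2 with the processed signal scaled to the 75th percentile, 2 with array weights (*Soat2* and *Lipa* both times), and 0 when a fold above 1.5 was asked as well, which left 1 for both factors. Leaving out 1 array gave 1 to 3 for diet, more than 1 without chow replicate 3 or 6, and 3 to 4 for both factors. With the replicate number as a block, 2 genes were called with diet, 5 with both factors and 0 by genotype, and *Npc1l1* with both factors was 0.33 (adjusted p = 0.0406). The labels do not say whether same-numbered arrays share anything besides the number. The diet difference of *Npc1l1* was 0.19 to 0.36 over the alternatives and 0.16 to 0.31 without 1 array, never called, and its genotype difference 0.02 to 0.09 and, without 1 array, -0.0073 to 0.16.

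Signs that turned belonged to differences near 0 that no setting called. With the processed signal scaled to the 75th percentile, *Npc1* was 0.044 and *Npc2* 0.0095 for diet, *Npc1* 0.065 for both factors and *Scarb1* 0.0073 for genotype. With the median signal scaled to it, *Npc1* was 0.020 and *Scarb1* 0.050 for diet and *Npc1* 0.044 for both factors. *Scarb1* was 0.013 for genotype with no filter, and *Npc1* 0.026 for both factors with array weights. With all probes of a gene averaged, *Npc1* was 0.043 for diet, -0.029 for genotype and 0.014 for both factors. Without 1 array, *Npc1* ranged from -0.10 to 0.018, -0.034 to 0.14 and -0.074 to 0.094 for diet, genotype and both, and *Scarb1* from -0.15 to 0.0050 for diet and -0.089 to 0.060 for genotype. *Scarb1* could not be fitted with the strict filter. The cause of these changes was not tested.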

Other observations

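The SD of 5 of the 8 members was larger on chow than in the floxed WD group, as it was for 56.0% of all genes. The median SD of the 8 genes was 0.25 on chow, 0.17 in the floxed WD group and 0.18 in the iPgc1α-/- group, against 0.18, 0.17 and 0.17 over all genes tested. *Soat2*, *Lipa* and *Stard3* had SDs of 0.25, 0.49 and 0.33 on chow and of 0.05, 0.16 and 0.09 in the floxed WD group. The other way round, *Soat1*, *Npc2* and *Npc1l1* had SDs of 0.13, 0.11 and 0.28 on chow and of 0.18, 0.14 and 0.29 in the floxed WD group. These values were compared after they had been seen and were given no test, while the limma model assumes 1 variance for all 3 groups.

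In the comparison of both factors, genes around the 8 that were called included *Apoa1*, the main protein of high-density lipoprotein (0.50, adjusted p = 0.0057), *Mttp*, which loads lipid onto apolipoprotein B (0.34, adjusted p = 0.0269), and *Smpd1*, the acid sphingomyelinase (log2 fold change -0.38, adjusted p = 0.0033). Their differences with diet were 0.36, 0.15 and -0.18 and with genotype 0.14, 0.19 and -0.21, and none of those passed. These 3 genes were chosen after their values were seen. In the comparison of both factors 26 of the 72 tested list genes were called higher and 18 lower, against 16.8% and 20.0% of all genes tested.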
